A study of Mus musculus with 2 samples.

Results

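Among sorted mouse lung epithelial cells, 276 of 19152 carried messages of both alveolar cell types in the same barcode, 116 of 8165 in a tumor-bearing sample and 160 of 10987 in a control sample. They are called AT2-AT1 cells here. A barcode was counted as a cell when it held at least 2000 unique molecular identifiers (UMIs, each standing for 1 captured RNA molecule), at least 500 genes and at most 20% mitochondrial UMIs. An AT2-AT1 cell then had at least 15% of its UMIs from Sftpc, the surfactant protein C gene that marks alveolar type 2 (AT2) cells. It also had at least 3 of 6 genes of alveolar type 1 (AT1) cells detected, namely Igfbp2, Rtkn2, Pdpn, Cytl1, Spock2 and Cav1, and fewer than 3 of the 5 endothelial genes Cldn5, Ramp2, Gpihbp1, Plvap and Cdh5. These measured values chose the cells, so their levels, and the comparison with the other cells they were chosen from, are given as descriptions with no test.

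Strain and genotype were shared by the groups: C57BL/6, wild type. For the tumor-bearing sample, 1000000 luciferase-labelled cells of the Lewis lung carcinoma line LLC had been injected subcutaneously on the dorsum, and lungs were collected on day 14. The control sample came from a mouse without a tumor, and the number of animals behind a library is not given in the sources used here. Lungs were digested with collagenases and DNase, and cells negative for the leukocyte protein CD45 and positive for SftpC were sorted before droplet (10x Genomics) sequencing. Each group is 1 library, so no difference between the groups has a replicate check and no p-value is given. The intervals below are exact 95% intervals (Clopper-Pearson for shares, Poisson for expression levels, conditional binomial for ratios), and they cover counting error only.

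AT2 cells are cuboidal, make and secrete surfactant, and act as progenitors of the alveolar lining. AT1 cells are very thin, cover most of the gas-exchange surface and lie on a shared basement membrane with the capillaries. After lung injury in mice, AT2 cells can turn into AT1 cells through a transitional state known for Krt8, Cldn4 and Sfn, so cells with genes of both types are of interest, while a droplet that captured an AT2 and an AT1 cell together would also carry both sets.

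The libraries held 84448360 UMIs in the tumor-bearing sample and 91498124 in the control sample. Sftpc-high cells, those with Sftpc at 15% or more, made up 82.29% of tumor-bearing cells and 90.98% of control cells. The summed AT2-AT1 profiles rest on 1533989 UMIs in tumor-bearing cells and 1585600 in control cells. They were set against 6568 tumor-bearing and 9830 control Sftpc-high cells with fewer than 3 AT1 genes and no endothelial limit (other Sftpc-high cells). They were also set against 115 tumor-bearing and 247 control AT1 cells, which had at least 3 AT1 genes, Sftpc under 5% and fewer than 3 endothelial genes. Of the passing barcodes, 128 sequences occurred in both libraries; 1 tumor-bearing AT2-AT1 cell and 0 control AT2-AT1 cells were among them, and no AT2-AT1 barcode was an AT2-AT1 cell in both.

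AT2-AT1 cells had shares with overlapping intervals in the libraries under the rule, but not where endothelial genes were barred altogether. They made up 1.42% of passing tumor-bearing cells (interval 1.18 to 1.70%) and 1.46% of passing control cells (1.24 to 1.70%). They made up 1.73% of tumor-bearing Sftpc-high cells (1.43 to 2.07%) and 1.60% of control ones (1.36 to 1.87%). These intervals overlap. With none of the 5 endothelial genes allowed in a member, the share was 0.612% of passing tumor-bearing cells (0.455 to 0.807%) and 1.27% of passing control cells (1.07 to 1.49%), and the intervals do not overlap. Endothelial messages were also more common among other Sftpc-high cells of the tumor-bearing library: Cldn5, an endothelial claudin, had a UMI in 11.7% of them, against 2.33% in control. AT1 cells, which share the gate, made up 1.41% of tumor-bearing cells (1.16 to 1.69%) and 2.25% of control cells (1.98 to 2.54%), with intervals that do not overlap. What part the sort for SftpC+ cells has in that share was not tested.

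The number of AT1 genes found in an Sftpc-high cell fell away quickly and then stopped falling. Cells with 3 or more of the 5 endothelial genes were left out of these counts. In the tumor-bearing library 4748 Sftpc-high cells had 0 of the 6 genes, 1299 had 1, 233 had 2, 48 had 3, 21 had 4, 15 had 5 and 32 had all 6. In the control library 7628 had 0, 1832 had 1, 317 had 2, 76 had 3, 39 had 4, 18 had 5 and 27 had all 6. More cells thus held all 6 genes than held 5, in both libraries. AT1 cells showed the same end more strongly: all 6 were held by 81 tumor-bearing AT1 cells (115 in all) and 137 control AT1 cells (247 in all).

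A second program unrelated to the alveolus was also found in Sftpc-high cells. Its counts had a different start and rose again after 4 genes, where those of AT1 genes rose after 5. Ciliated airway cells were marked by Foxj1, a transcription factor of motile cilia, and by Ccdc153, Tmem212, Rsph1, Dynlrb2 and Tppp3. In the tumor-bearing library 2359 Sftpc-high cells had 0 of these genes, 3127 had 1 and 1136 had 2, and in the control library 3820 had 0, 4633 had 1 and 1412 had 2. At least 3 of the 6 were detected in 97 tumor-bearing Sftpc-high cells, or 1.44% (1.17 to 1.76%), and in 131 control ones, or 1.31% (1.10 to 1.55%). With 5 or 6 genes of the second program, the tumor-bearing library held 47 Sftpc-high cells with AT1 genes (0.700%, interval 0.514 to 0.929%) and 31 with ciliated genes (0.461%, 0.314 to 0.654%). The control library held 45 of each kind (0.450%, 0.329 to 0.602%). The shares with 5 or 6 AT1 genes and with 5 or 6 ciliated genes thus had overlapping intervals within each library. The ciliated counts had no limit on endothelial genes. That limit left 35 tumor-bearing and 6 control cells with 3 or more AT1 genes out of the AT1 counts. The pools they could be set beside differed in size: with Sftpc under 5%, 100 tumor-bearing and 187 control cells held 5 or 6 AT1 genes, while 216 tumor-bearing and 265 control cells held 5 or 6 ciliated genes. Tppp3 also has a level in AT1 cells, at 1149.9 CPM (counts scaled to a total of 1000000 UMIs) in tumor-bearing cells and 1565.5 CPM in the control library, so it adds to the ciliated count in cells with AT1 genes.

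**Figure D1:**
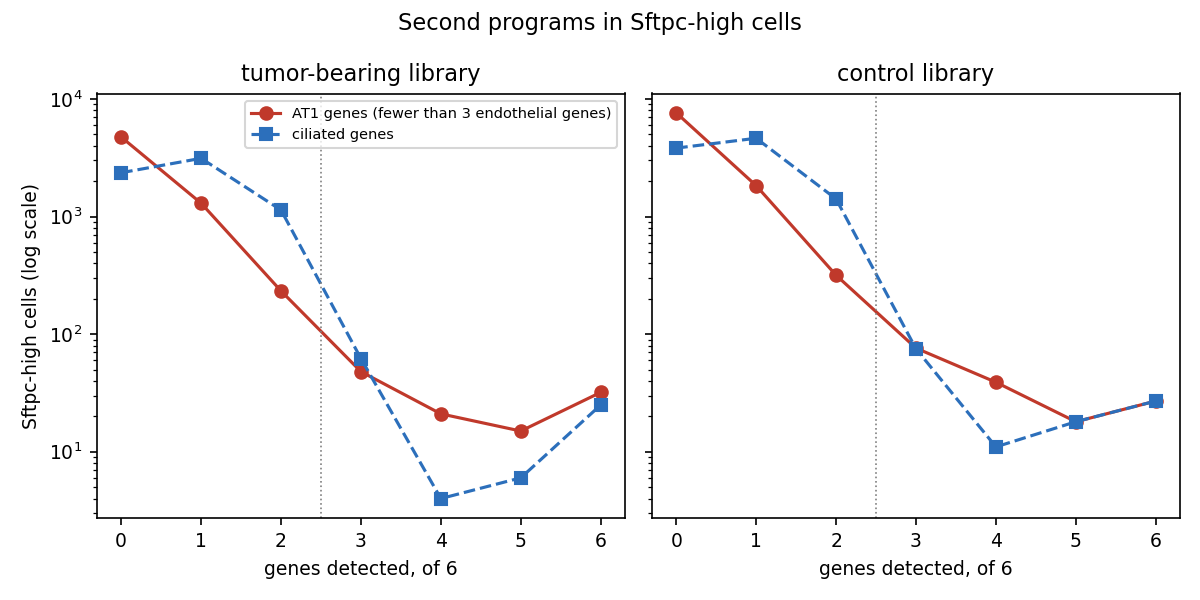
Number of Sftpc-high cells (vertical axis, log scale) by how many of 6 AT1 genes (red circles, cells with fewer than 3 endothelial genes) or 6 ciliated genes (blue squares) were detected, for the tumor-bearing and control libraries. Right of the dotted line lie the cells with 3 or more genes. There the AT1 curve rises after 5 genes and the ciliated curve after 4. At 6 genes the tumor-bearing library has 32 cells by AT1 genes and 25 by ciliated genes, and the control library has 27 of each.

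Ciliated cells seldom carried the AT1 genes. At least 3 of them were detected in 1 of 229 tumor-bearing ciliated cells (0.437%, interval 0.0111 to 2.41%) and in 5 of 274 control ciliated cells (1.82%, 0.595 to 4.21%). For single genes, ciliated cells give the share with a UMI in another cell type, which need not come from free RNA alone. Igfbp2, which encodes an insulin-like growth factor binding protein of AT1 cells, had a UMI in 7.0% of tumor-bearing ciliated cells and 12.8% of control ciliated cells, against 3.85% of tumor-bearing and 4.87% of control other Sftpc-high cells. Igfbp2 in other Sftpc-high cells thus did not exceed the share in ciliated cells. For Pdpn and Cytl1 other Sftpc-high cells had the larger share: Pdpn was found in 6.70% of tumor-bearing and 5.46% of control other Sftpc-high cells, against 3.06% of tumor-bearing and 4.38% of control ciliated cells. Cytl1 was found in 3.50% of tumor-bearing and 3.27% of control other Sftpc-high cells, against 0.873% of tumor-bearing and 2.19% of control ciliated cells. Spock2 had the larger share in ciliated cells of both libraries, and Rtkn2 and Cav1 each went opposite ways in the libraries. The rule limits these genes in other Sftpc-high cells, which also hold more UMIs than ciliated cells. Among AT2-AT1 cells, Igfbp2 was found in 72.4% of tumor-bearing and 73.1% of control cells. The median UMIs per cell were 11405 in tumor-bearing and 9096.5 in control AT2-AT1 cells, against 5190 in tumor-bearing and 4379.5 in control ciliated cells.

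The other genes of the rule were found in fewer AT2-AT1 cells than AT1 cells. Pdpn, which encodes the membrane protein podoplanin, was detected in 84.5% of tumor-bearing and 68.8% of control AT2-AT1 cells, against 98.3% of tumor-bearing and 98.0% of control AT1 cells. Cav1, which encodes the coat protein of caveolae, was detected in 83.6% of tumor-bearing and 75.6% of control AT2-AT1 cells, against 97.4% of tumor-bearing and 95.9% of control AT1 cells. Rtkn2 was detected in 59.5% of tumor-bearing and 61.3% of control AT2-AT1 cells. The secreted protein genes Cytl1 and Spock2 were detected in 69.0% and 57.8% of tumor-bearing AT2-AT1 cells and in 66.3% and 52.5% of control ones. When every cell was thinned to 2000 UMIs, Igfbp2 was left in 36.2% of tumor-bearing and 35.0% of control AT2-AT1 cells, and in 69.6% of tumor-bearing and 60.3% of control AT1 cells.

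Most AT2-AT1 cells passed the rule on a few molecules. The 6 genes together gave a median of 6 UMIs per AT2-AT1 cell in each library, with a range of 3 to 78 in tumor-bearing cells and 3 to 64 in control cells. AT1 cells had a median of 39 UMIs in tumor-bearing cells and 33 in control cells, although they held fewer UMIs in all. Members with 5 or 6 genes had a median of 27 UMIs of the AT1 genes in tumor-bearing cells and 21 in control cells, and members with 3 genes had a median of 4 in each. After thinning to 2000 UMIs, 31 of 116 tumor-bearing and 34 of 160 control AT2-AT1 cells still held 3 AT1 genes. Under that depth the whole rule found 37 tumor-bearing cells (0.453% of passing cells, 0.319 to 0.624%) and 34 control cells (0.309%, 0.214 to 0.432%), with intervals that overlap.

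The Sftpc threshold cut through a spread of values. With at least 3 AT1 genes and fewer than 3 endothelial genes, 18 tumor-bearing cells (0.221%, 0.131 to 0.348%) and 78 control cells (0.710%, 0.562 to 0.885%) had Sftpc between 5% and 15%. Of these, 1 tumor-bearing and 27 control cells had 5 to 10% Sftpc, so few tumor-bearing cells lay between the AT1 cells and 10%. Just inside the Sftpc threshold, at 15 to 17% Sftpc, the 6 AT1 genes summed to 2314 CPM in 14 tumor-bearing cells and 2339 CPM in 22 control cells. Just outside it, at 13 to 15%, they summed to 2869 CPM in 10 tumor-bearing cells and 2936 CPM in 21 control cells. At 30% Sftpc or more they summed to 370.5 CPM in tumor-bearing and 460.9 CPM in control cells. From 10% Sftpc upwards the AT1 genes were thus lower where Sftpc was higher; both are shares of 1 total. The 27 control cells at 5 to 10% Sftpc did not follow that order, with 2739 CPM against 3119 CPM in the 30 cells at 10 to 13%.

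**Figure D2:**
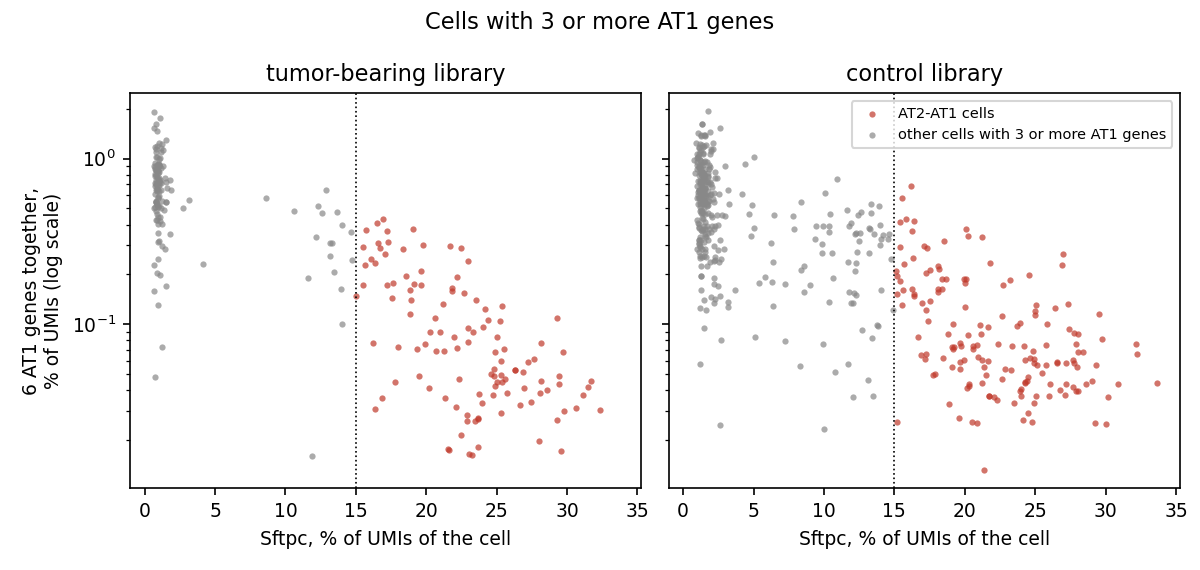
Each point is 1 cell with at least 3 of the 6 AT1 genes and fewer than 3 endothelial genes; the horizontal axis is the share of its UMIs from Sftpc and the vertical axis the share from the 6 AT1 genes together (log scale). Red points, right of the dotted 15% line, are the 116 tumor-bearing and 160 control AT2-AT1 cells; grey points are the remaining cells, most of them AT1 cells at the left, and in both libraries the points slope downwards with rising Sftpc.

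Levels of the AT1 genes that chose the cells lay between those of AT1 cells and other Sftpc-high cells. All levels are CPM over the summed UMIs of a class, and gene positions are from GENCODE vM21 on mm10. Igfbp2 (chromosome 1, 72824503 to 72852474, plus strand) stood at 262.7 CPM in tumor-bearing AT2-AT1 cells, with 4.53 CPM in other Sftpc-high cells and 2035 CPM in AT1 cells. Control levels of Igfbp2 stood at 310.9 CPM in AT2-AT1 cells, with 7.71 CPM in other Sftpc-high cells and 1944.6 CPM in AT1 cells. Sftpc (chromosome 14, 70520949 to 70524081, minus strand) stood at 221220 CPM in tumor-bearing AT2-AT1 cells against 263674 CPM in other Sftpc-high cells. In control AT2-AT1 cells it stood at 218796 CPM against 262464 CPM. The remaining 5 AT1 genes of the rule ranged in AT2-AT1 cells from 139.5 CPM (Spock2) to 213.8 CPM (Pdpn) in tumor-bearing cells and from 116.0 CPM (Spock2) to 218.8 CPM (Cav1) in the control library.

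AT1 genes that the rule did not use were higher in the same cells. A gene met the size rule when it reached 50 CPM in either class, differed by at least 1 on the log2 scale (with 1 CPM added) and had Poisson intervals that did not overlap. Over all genes, 135 of 2026 were higher in tumor-bearing AT2-AT1 cells than in other Sftpc-high cells (6.66%), and none lower. In the control library 125 of 2053 were higher (6.09%) and 2 lower (0.0974%), the hemoglobin genes Hbb-bs and Hba-a1. In both libraries 106 of 1899 were higher (5.58%). These counts include the 6 AT1 genes of the rule, which met the size rule in both libraries. Of 35 listed AT1 genes outside the rule, 31 reached 20 CPM in the tumor-bearing library: 23 met the size rule, 30 lay above 0 and their median log2 ratio was 1.71. In the control library 32 were measured: 22 met the size rule, 31 lay above 0 and the median was 2.00. All genes at 20 CPM or more had median log2 ratios of 0.182 in tumor-bearing cells and 0.178 in the control library. Of these, 135 of 4471 in tumor-bearing and 125 of 4559 in control met the size rule as higher. Of the same genes, 3354 of 4471 in tumor-bearing and 3403 of 4559 in control lay above 0.

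Hopx, which encodes a homeodomain protein of AT1 cells, came first in a ranking of genes past the size rule in both libraries. The ranking is by the smaller of the 2 ratios. It leaves out the genes that chose the cells, most of which had larger ratios, and genes with high levels in empty droplets. Listed genes under 50 CPM in 1 library, such as Sema3e with log2 ratios of 4.69 in tumor-bearing and 4.24 in control, could be higher. The level of Hopx was 1690.4 CPM in tumor-bearing AT2-AT1 cells and 93.4 CPM in other Sftpc-high cells, an 18.1-fold ratio (17.3 to 19.0), with 9211.9 CPM in AT1 cells. In the control library it was 1728.1 CPM in AT2-AT1 cells and 99.8 CPM in other Sftpc-high cells, a 17.3-fold ratio (16.6 to 18.1), with 9154.7 CPM in AT1 cells. The level in AT2-AT1 cells was therefore nearer to other Sftpc-high cells than to AT1 cells on a linear scale. Ager, which encodes the receptor for advanced glycation end products and is one of the most abundant AT1 messages, had 5970.1 CPM in tumor-bearing AT2-AT1 cells, 1821.4 CPM in other Sftpc-high cells and 31572.4 CPM in AT1 cells. Control levels of Ager were 6307.4 CPM in AT2-AT1 cells, 1686.7 CPM in other Sftpc-high cells and 30152.9 CPM in AT1 cells. Its ratio over other Sftpc-high cells was 3.28 (3.21 to 3.35) in tumor-bearing cells and 3.74 (3.66 to 3.82) in the control library.

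Further genes high in AT1 cells stood with Hopx among the first 12 of that ranking, which leaves out the genes that chose the cells. Fbln5, an elastic fibre protein, had log2 ratios over other Sftpc-high cells of 4.21 in tumor-bearing cells and 4.08 in the control library. Pmp22, a tetraspan membrane protein, had 3.90 in tumor-bearing and 3.65 in control. Limch1, an actomyosin regulator, had 3.53 in tumor-bearing and 3.90 in control, and Clic5, a chloride channel family protein, had 3.42 in tumor-bearing and 3.6 in control. Sdpr, a caveolar protein, had 3.37 in tumor-bearing and 3.99 in control. In other Sftpc-high cells, which had no endothelial limit, Sdpr stood at 18.1 CPM in tumor-bearing and 9.19 CPM in control. Cryab, a small heat shock protein, had 3.64 in tumor-bearing and 3.45 in control, and Cdkn2b, a cell cycle inhibitor, had 3.44 in tumor-bearing and 3.22 in control. Pxdc1, Ctgf and Cyp4b1 were also among the 12, with log2 ratios from 3.21 to 4.12. For each of these named genes the level in AT2-AT1 cells lay below the level in AT1 cells.

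**Figure D3:**
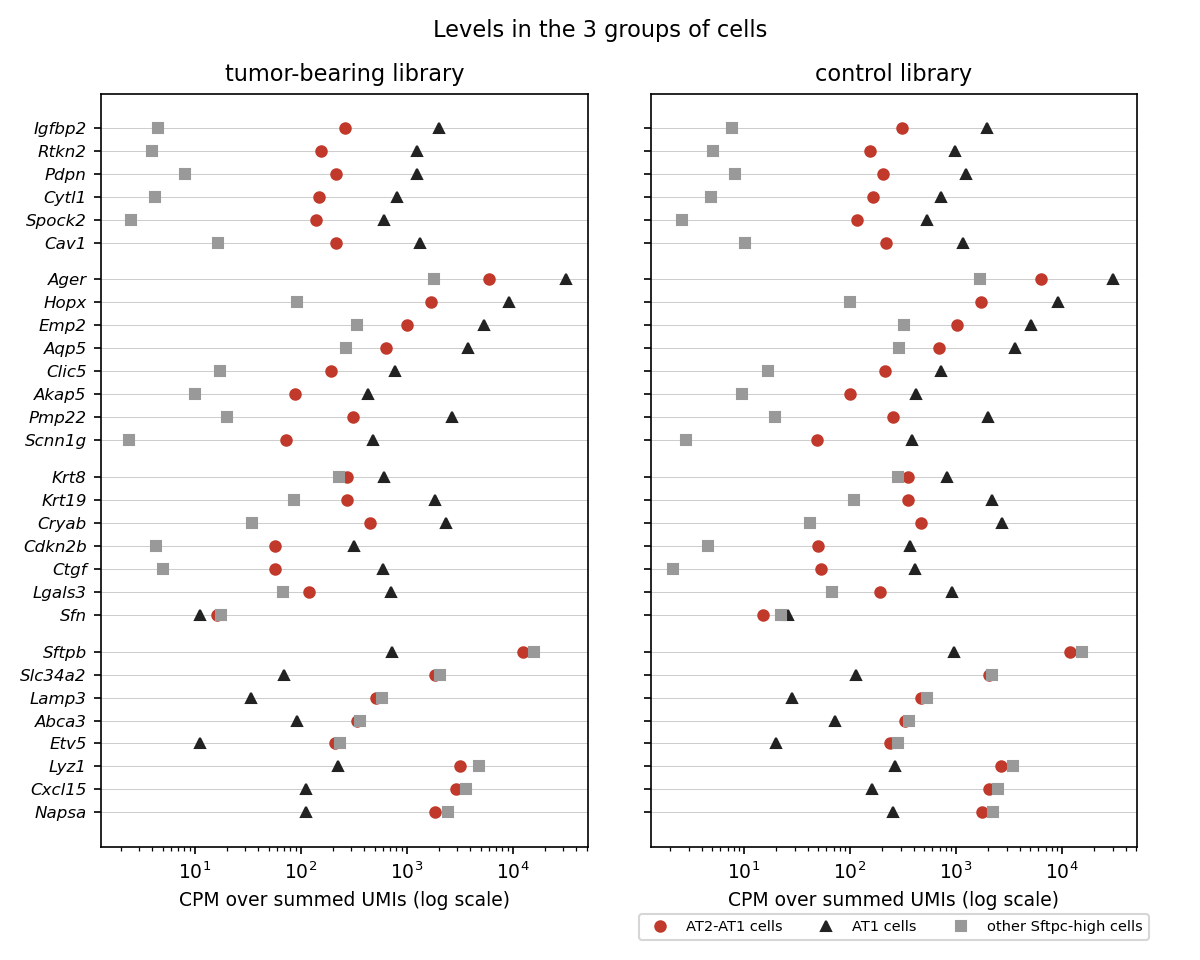
CPM (horizontal axis, log scale) of genes in AT2-AT1 cells (red circles), AT1 cells (black triangles) and other Sftpc-high cells (grey squares) in the tumor-bearing and control libraries. From top to bottom the blocks are the 6 AT1 genes of the rule, other AT1 genes, genes of the transitional state and AT2 genes; the red circle lies between the other symbols for the AT1 genes, as with Hopx at 1690.4 CPM in tumor-bearing and 1728.1 CPM in control cells, and close to the grey square for the AT2 genes.

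Some genes of the AT1 basement membrane were higher as well. Among all genes at 20 CPM or more, the cut-off of the lists, the median log2 ratio was 0.182 in tumor-bearing and 0.178 in control. Of them, 135 of 4471 met the size rule as higher in tumor-bearing and 125 of 4559 in control. Of 15 measured in the tumor-bearing library 5 met the size rule (Col4a2, Col4a3, Col4a4, Hspg2 and Timp3) with a median log2 ratio of 1.93, and of 14 in the control library 3 met it (Col4a2, Col4a4 and Timp3) with a median of 1.84. Timp3, an inhibitor of matrix proteases, had 436.1 CPM in tumor-bearing AT2-AT1 cells and 103.3 CPM in other Sftpc-high cells, and 437.7 CPM against 86.6 CPM in control cells. Of the genes of the cytoskeleton and caveolae, 9 of 22 met the size rule in tumor-bearing cells (median 0.59) and 8 of 22 in control cells (median 0.60). S100a6, a calcium-binding protein, had 1227.5 CPM in tumor-bearing AT2-AT1 cells and 155.7 CPM in other Sftpc-high cells, and 1399.5 CPM against 175.8 CPM in control cells. Among ion and water transport genes 5 of 14 met the rule in each library (medians 0.55 in tumor-bearing and 0.52 in control). They included Scnn1g, a subunit of the epithelial sodium channel, at 72.4 CPM in tumor-bearing AT2-AT1 cells and 2.40 CPM in other Sftpc-high cells, and at 49.2 CPM against 2.81 CPM in control cells. Aqp5, the water channel of the apical AT1 membrane, had 633.6 CPM in tumor-bearing AT2-AT1 cells and 270.1 CPM in other Sftpc-high cells, and 694.4 CPM against 293.3 CPM in control cells.

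The AT2 genes lay near the level of other Sftpc-high cells and stood slightly lower. None of 34 AT2 identity genes met the size rule in either library. Over all genes, 0 of 2026 were lower in tumor-bearing and 2 of 2053 in control. None being lower thus does not set AT2 genes apart. Of the AT2 genes, 32 lay below 0 in the tumor-bearing library (median log2 ratio -0.21) and 33 in the control library (median -0.23). Among all genes at 20 CPM or more, 3354 of 4471 lay above 0 in tumor-bearing and 3403 of 4559 in control. Sftpb, surfactant protein B, had 12419.3 CPM in tumor-bearing AT2-AT1 cells and 15769.9 CPM in other Sftpc-high cells, and 11871.8 CPM against 15420 CPM in control cells. Lamp3, a protein of lamellar bodies, had 509.8 CPM in tumor-bearing AT2-AT1 cells and 581.3 CPM in other Sftpc-high cells, and 471.1 CPM against 538.5 CPM in control cells. Its level in AT1 cells was 34.0 CPM in tumor-bearing and 28.2 CPM in control cells, so AT2-AT1 cells lay far from AT1 cells on this gene. Lyz1, a lysozyme gene, was the member furthest below 0 in the tumor-bearing library, at 3168.9 CPM in AT2-AT1 cells and 4851.4 CPM in other Sftpc-high cells. Genes of lipid and surfactant synthesis had medians of -0.16 in tumor-bearing and -0.13 in control cells, with 0 of 23 past the rule in each. These 23 are too few to set a count of 0 apart from the share over all genes. Nkx2-1, the lung lineage transcription factor of both alveolar types, had 170.8 CPM in tumor-bearing AT2-AT1 cells and 139.4 CPM in other Sftpc-high cells, and 145.7 CPM against 152.6 CPM in control cells.

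Surfactant messages fill a large part of these cells and move every CPM. They took 26.4% of UMIs in tumor-bearing AT2-AT1 cells and 31.7% in other Sftpc-high cells, and 26.0% against 31.4% in the control library. Without them in the library totals, the median log2 ratio over the genes at 50 CPM or more was 0.05 in the tumor-bearing library, against 0.15 with them, and 0.04 in the control library, against 0.14.

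Of the genes by which a transitional AT2 state is known, some were higher in AT2-AT1 cells. Of the best known, Krt8 was little higher, Sfn was not and Cldn4 was too low to judge. Of 33 listed genes, 20 were measured in the tumor-bearing library, with 6 past the size rule and a median log2 ratio of 0.75, and 21 in the control library, with 8 past it and a median of 0.97. Over all genes at 20 CPM or more, 135 of 4471 in tumor-bearing and 125 of 4559 in control met it as higher. The listed genes past the rule in both libraries were Cryab, Cdkn2b, Ctgf, Krt19 and Tm4sf1, each of which was higher still in AT1 cells. Krt19, a keratin, had 275.1 CPM in tumor-bearing AT2-AT1 cells, 86.0 CPM in other Sftpc-high cells and 1841 CPM in AT1 cells. Control levels of Krt19 were 351.3 CPM in AT2-AT1 cells, 108.7 CPM in other Sftpc-high cells and 2173.4 CPM in AT1 cells.

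The keratin Krt8 itself differed little, and AT1 cells had only 607.5 CPM of it in tumor-bearing and 815.3 CPM in control. It had 272.5 CPM in tumor-bearing AT2-AT1 cells and 229.9 CPM in other Sftpc-high cells, a ratio of 1.19 (1.07 to 1.31), and 353.2 CPM against 284.1 CPM in control cells, a ratio of 1.24 (1.14 to 1.35). Cldn4, a tight junction claudin, had 0 CPM in tumor-bearing AT2-AT1 cells and 1.28 CPM in other Sftpc-high cells, and 0.631 CPM against 0.918 CPM in control cells. Sfn, the cell cycle regulator 14-3-3 sigma, had 16.3 CPM in tumor-bearing AT2-AT1 cells and 17.5 CPM in other Sftpc-high cells, and 15.1 CPM against 22.3 CPM in control cells. Sfn was thus not higher in AT2-AT1 cells of either library. Cldn4 was so near 0 CPM in both classes that a difference could not be seen. Of the p53 targets, none of 6 in tumor-bearing and none of 7 in control cells met the size rule, with a median of 0.30 in each. All genes at 20 CPM or more had medians of 0.182 in tumor-bearing and 0.178 in control. Of them, 135 of 4471 in tumor-bearing and 125 of 4559 in control met the rule as higher. The measured p53 targets are too few to set their count apart from that share.

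Targets of YAP and TEAD, transcriptional regulators of the AT1 fate, were among the genes that differed. Of 8 measured in the tumor-bearing library 5 met the rule (median 1.52), and of 11 in the control library 4 (median 1.18). Cyr61, a secreted matricellular protein, had 153.2 CPM in tumor-bearing AT2-AT1 cells, 27.6 CPM in other Sftpc-high cells and 1140 CPM in AT1 cells. Control levels of Cyr61 were 168.4 CPM in AT2-AT1 cells, 18.5 CPM in other Sftpc-high cells and 1232 CPM in AT1 cells. Of the alveolar transcription factors 2 met the rule in each library, Hopx and Tead1, out of 23 measured in tumor-bearing and 22 in control cells. The AT2 factors Etv5 and Cebpa lay slightly below other Sftpc-high cells. Etv5 had 210.6 CPM in tumor-bearing AT2-AT1 cells and 235.7 CPM in other Sftpc-high cells, and 238.4 CPM against 281.6 CPM in control cells. Of all genes at 20 CPM or more, 135 of 4471 in tumor-bearing and 125 of 4559 in control met the rule as higher. The lists use the same cut-off. Hopx and Tead1 are a larger share of the measured factors than that, but they are only 2 genes. Of the TGF-beta and BMP list 1 gene met the rule in each library (1 of 11 in tumor-bearing, 1 of 10 in control). The Wnt and Notch list (4 measured), the cell cycle list (3 measured) and the MHC list (12 in tumor-bearing, 13 in control) had none. These lists hold too few measured genes to set their counts apart from the share over all genes.

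To place AT2-AT1 cells between the 2 classes, a position was computed per gene as the difference of AT2-AT1 and other Sftpc-high cells divided by the difference of AT1 and other Sftpc-high cells, in CPM. A value of 0 means the level of other Sftpc-high cells and 1 the level of AT1 cells. This measure was added after the data had been seen. Over 292 genes at least 4 times higher in AT1 cells, none of them in the rule, the median position was 0.143 in the tumor-bearing library (quartiles 0.113 and 0.181). Over 333 such genes it was 0.156 in the control library (0.125 and 0.188). Over genes at least 4 times higher in other Sftpc-high cells it was 0.169 for 86 genes in tumor-bearing cells and 0.177 for 74 genes in the control library. The quartiles of the AT1-high and the AT2-high genes thus overlapped in both libraries over all members. Hopx stood at 0.175 in tumor-bearing and 0.180 in control cells, Ager at 0.139 and 0.162, Emp2 at 0.137 and 0.146, and Aqp5 at 0.104 and 0.121.

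The position depended on how many AT1 genes a member held. Members with 3 genes lay at a median of 0.025 over the AT1-high genes in tumor-bearing cells and 0.059 in the control library. Members with 4 lay at 0.056 in tumor-bearing and 0.127 in control, and those with 5 or 6 at 0.262 in tumor-bearing (quartiles 0.208 and 0.321) and 0.275 in control (0.229 and 0.335). Sftpc-high cells with 2 genes and fewer than 3 endothelial genes, just outside the rule, lay at 0.013 in tumor-bearing and 0.021 in control. Over the AT2-high genes the members with 3 genes lay at 0.084 in tumor-bearing and 0.095 in control, further along than over the AT1-high genes. Those with 4 lay at 0.075 in tumor-bearing and 0.137 in control, and those with 5 or 6 at 0.288 in tumor-bearing and 0.296 in control. A second program in depth was therefore found in the 47 tumor-bearing and 45 control cells with 5 or 6 genes, while the 48 tumor-bearing and 76 control cells with 3 genes were close to other Sftpc-high cells. Hopx showed the same order, with 432.4, 880.8 and 2890.8 CPM at 3, 4 and 5 or 6 genes in the tumor-bearing library, and 701.6, 1677.2 and 2944.7 CPM in the control library. Hopx at 0 genes was 65.0 CPM in tumor-bearing and 78.3 CPM in control cells. Since the count of AT1 genes orders these groups and AT1 genes go together in AT1 cells, this order is a description.

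**Figure D4:**
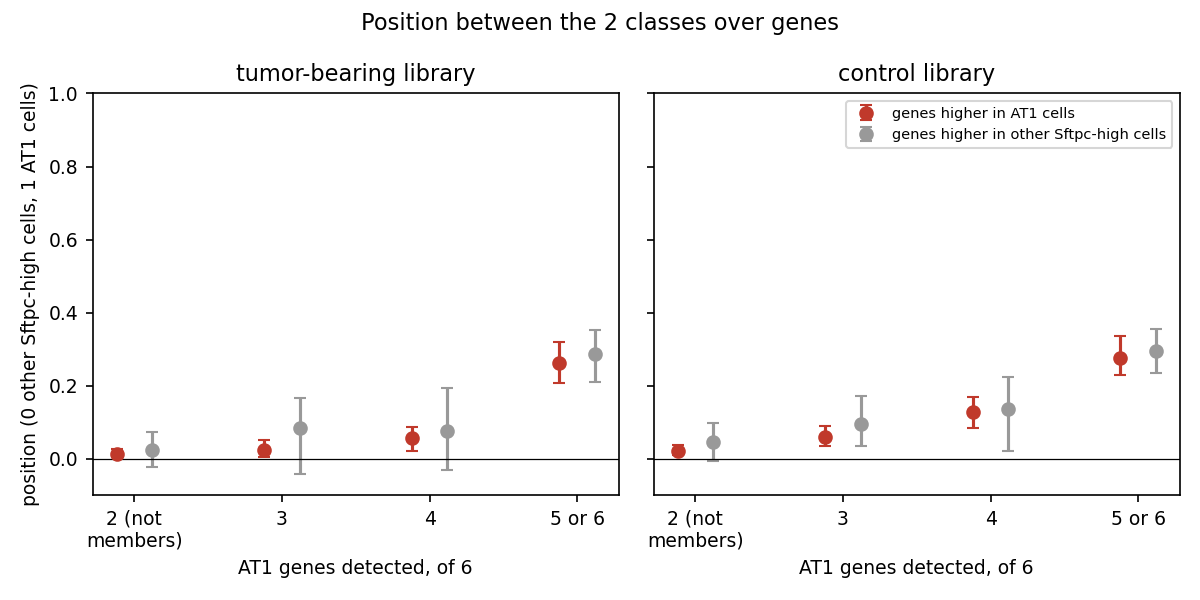
Median position over genes (points) with quartiles (bars), where 0 is the level of other Sftpc-high cells and 1 that of AT1 cells, for Sftpc-high cells by the number of the 6 AT1 genes detected. All the cells shown had fewer than 3 endothelial genes. Red points are genes higher in AT1 cells and grey points genes higher in other Sftpc-high cells; in both libraries cells with 2 or 3 genes lie below 0.1, and cells with 5 or 6 genes lie at 0.262 in tumor-bearing and 0.275 in control cells for the AT1-high genes.

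Few genes departed from the line between the 2 classes. For each gene of 50 CPM or more, the level at the median position was compared with the measured one, with a difference of at least 1 on the log2 scale and an interval that excluded the line. Of 3140 genes in the tumor-bearing library, 1 lay above the line (0.0318%) and 12 below it (0.382%). The gene above was Hspg2, a heparan sulfate proteoglycan of basement membranes. Of 3149 in the control library 0 lay above (0%) and 8 below (0.254%). Those below in the tumor-bearing library included the mesothelial genes Msln and Upk3b and the muscle genes Acta2 and Tagln, which were carried by the AT1 class. Those below in the control library included the club cell genes Scgb3a1 and Scgb3a2 and the hemoglobin genes Hbb-bs and Hba-a1. No gene was at least 2 times as high as in both classes with intervals apart: the count was 0 of 3140 in tumor-bearing and 0 of 3149 in control AT2-AT1 cells.

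AT2-AT1 cells held more RNA molecules than either class. Their median was 11405 UMIs in the tumor-bearing library, against 8934 in other Sftpc-high cells and 5789 in AT1 cells. In the control library it was 9096.5 UMIs, against 6928 in other Sftpc-high cells and 5716 in AT1 cells. The count went up with the AT1 genes detected: members with all 6 genes had medians of 13855.5 UMIs in tumor-bearing cells and 14323 in control cells. Sftpc-high cells with 5 or 6 ciliated genes had 12577 UMIs in tumor-bearing and 10128 in control cells. More UMIs also make it more likely that a gene is detected at all. Split at the median UMI count, AT2-AT1 cells of the upper part lay at a position of 0.178 in tumor-bearing and 0.186 in control, and those of the lower part at 0.076 in tumor-bearing and 0.098 in control.

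**Figure D5:**
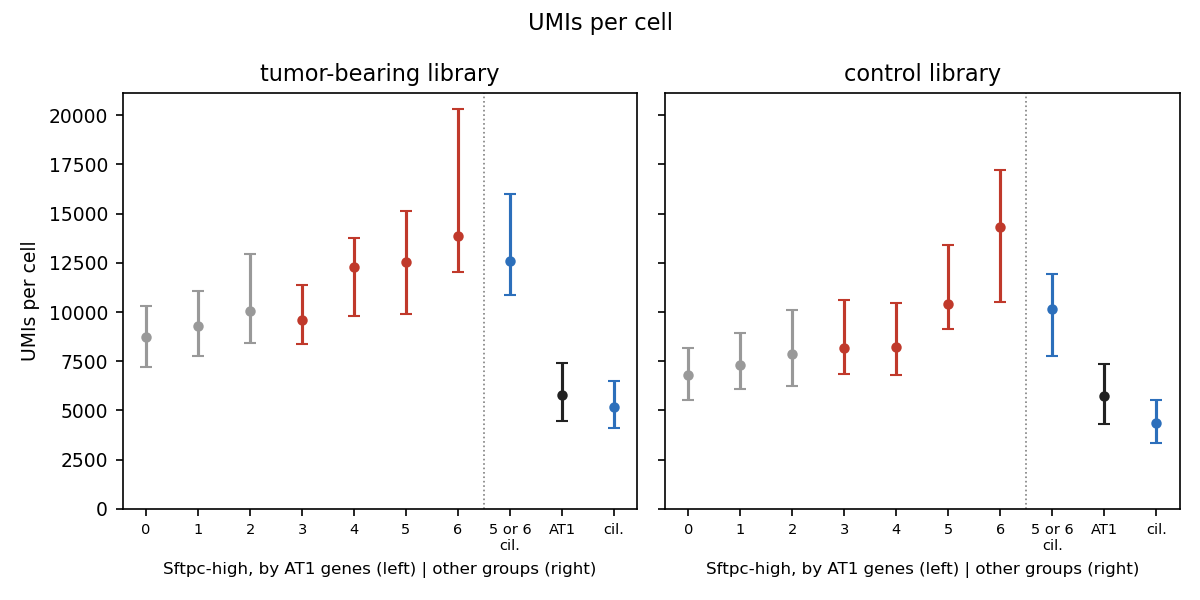
UMIs per cell (median with quartiles) in the tumor-bearing and control libraries for Sftpc-high cells with 0 to 6 AT1 genes (grey for 0 to 2, red for the AT2-AT1 cells with 3 to 6), then Sftpc-high cells with 5 or 6 ciliated genes (blue), AT1 cells (black) and ciliated cells with low Sftpc (blue, far right). Sftpc-high cells shown by AT1 genes had fewer than 3 endothelial genes. Cells with all 6 AT1 genes have the highest medians, 13855.5 in tumor-bearing and 14323 in control cells, above the 5789 and 5716 of AT1 cells.

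The doublet caller Scrublet, which scores each cell by its likeness to simulated pairs of cells, set an automatic threshold that marked 0 cells in each library, so it gave no call. Taking instead the highest scores, up to the 0.8% per 1000 cells that is usual for this droplet system, 533 tumor-bearing and 966 control cells were marked. Of AT2-AT1 cells, 9 of 116 were marked in the tumor-bearing library (7.76%), against 6.84% of other Sftpc-high cells. In the control library 40 of 160 were marked (25.0%), against 8.88% of other Sftpc-high cells. Of those with 5 or 6 AT1 genes, 8.51% were marked in tumor-bearing cells and 51.1% in the control library. Of Sftpc-high cells with 5 or 6 ciliated genes, 25 of 31 were marked in tumor-bearing cells and 36 of 45 in control cells. Without the marked cells the median position was 0.137 in tumor-bearing and 0.108 in control AT2-AT1 cells, and in control 76 genes met the size rule as higher than in other Sftpc-high cells and the transitional list median was 0.40. The share marked thus differed between the libraries for AT1 genes and hardly for ciliated genes. What part pairs of cells in 1 droplet have in the AT2-AT1 cells was not tested, and no cell was removed as a doublet.

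Some markers of other cell types differed between AT2-AT1 cells and other Sftpc-high cells. The 8 endothelial genes, 5 of them limited by the rule, summed to 153.8 CPM in tumor-bearing AT2-AT1 cells and 203.9 CPM in other Sftpc-high cells. In control cells they summed to 97.1 CPM against 63.8 CPM. Other Sftpc-high cells had no limit on endothelial genes. Those outside the rule (Pecam1, Egfl7 and Ctla2a) summed to 84.1 CPM in tumor-bearing AT2-AT1 cells and 82.5 CPM in other Sftpc-high cells, and to 78.2 CPM against 47.0 CPM in control cells. The rule on endothelial genes removed 35 tumor-bearing and 6 control cells, and 50 of 116 tumor-bearing and 139 of 160 control AT2-AT1 cells had none of the 5 genes of the rule. The 4 mesothelial genes were at 0 in tumor-bearing cells and summed to 0.631 CPM in the control library. Among basal markers Krt5, Krt14 and Trp63 were at 0 in AT2-AT1 cells of both libraries, as were the leukocyte genes Ptprc, Cd52 and Cd79a. The 8 leukocyte genes summed to 27765.5 CPM in tumor-bearing AT2-AT1 cells and 33871.5 CPM in other Sftpc-high cells, and to 28461.8 CPM against 35517.6 CPM in control cells, nearly all of it from Lyz2, a lysozyme gene that AT2 cells also express. S100a8 and S100a9, genes of neutrophils, had 11.1 and 6.52 CPM in tumor-bearing AT2-AT1 cells and were at 0 in control ones. The ciliated genes summed to 355.3 CPM in tumor-bearing AT2-AT1 cells and 167.4 CPM in other Sftpc-high cells, and to 453.5 CPM against 193.5 CPM in control cells, mostly from Tppp3. The 6 fibroblast genes summed to 70.4 CPM in tumor-bearing AT2-AT1 cells and 55.2 CPM in other Sftpc-high cells, and to 61.8 CPM against 16.7 CPM in control cells, with Col3a1 and Dcn at 0 in both. The 5 club cell genes summed to 5614.1 CPM in tumor-bearing AT2-AT1 cells and 116883.8 CPM in empty droplets of 1 to 100 UMIs, and to 2339.8 CPM in control AT2-AT1 cells and 14415.3 CPM in empty droplets, so their messages were common in free RNA. The platelet genes summed to 22.2 CPM in tumor-bearing AT2-AT1 cells and 29.1 CPM in other Sftpc-high cells, and to 61.8 CPM against 26.5 CPM in control cells. The red cell genes summed to 19.6 CPM in tumor-bearing AT2-AT1 cells and 40.7 CPM in other Sftpc-high cells, and to 38.5 CPM against 178.8 CPM in control cells. The part of these messages in the results was not tested.

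Between the groups, AT2-AT1 cells differed in few genes. Of 2140 genes 5 were higher in tumor-bearing cells (0.234%) and 3 lower (0.14%). With no endothelial gene allowed in a member, 16 were higher and 6 lower. In other Sftpc-high cells 7 of 1776 were higher (0.394%) and 3 lower (0.169%), and in AT1 cells 48 of 3173 were higher (1.51%) and 27 lower (0.851%). With 1 library in each group, the tumor and the library cannot be told apart.

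Areg, which encodes the epidermal growth factor receptor ligand amphiregulin, had 133.6 CPM (interval 116.0 to 153.2) in tumor-bearing AT2-AT1 cells and 51.7 CPM (41.1 to 64.2) in control ones, a ratio of 2.58 (1.99 to 3.38). Other Sftpc-high cells showed the same direction, with a log2 ratio of 0.85 against 1.35 in AT2-AT1 cells. With at least 4 AT1 genes in a member the log2 ratio of Areg was 0.99, under the size rule. Acot1, an acyl-CoA thioesterase, had 112.8 CPM in tumor-bearing AT2-AT1 cells and 48.6 CPM in control ones. Its log2 ratio was 1.20, against 1.39 in other Sftpc-high cells. Empty droplets held 92.4 CPM of Acot1 in tumor-bearing and 46.5 CPM in control. They held 86.2 CPM of Areg in tumor-bearing and 66.8 CPM in control. Col4a3, a basement membrane collagen chain, had 91.3 CPM in tumor-bearing AT2-AT1 cells (76.8 to 107.7) and 42.3 CPM in control ones (32.8 to 53.7), a log2 ratio of 1.09. In AT1 cells it had 467.3 CPM in tumor-bearing and 236.2 CPM in control cells, a log2 ratio of 0.98, while in other Sftpc-high cells it stood at 6.29 CPM in tumor-bearing and 6.09 CPM in control, a log2 ratio of 0.04. The ratio of Col4a3 in AT2-AT1 cells was thus nearer to that in AT1 cells than to that in other Sftpc-high cells. This is 1 gene, and the cause was not tested. Hspa1a and Scgb1a1 also met the rule, with log2 ratios of 2.22 and 1.28, but empty droplets held more of both: in the tumor-bearing library Hspa1a had 121.8 CPM there against 59.3 CPM in AT2-AT1 cells, and Scgb1a1 had 114315.2 CPM there (14043.1 CPM in control empty droplets).

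Lower in tumor-bearing AT2-AT1 cells were Nrn1, Gkn3 and Gsta3. Nrn1, neuritin, had 33.9 CPM in tumor-bearing and 96.5 CPM in control AT2-AT1 cells, a log2 ratio of -1.48, against -0.97 in other Sftpc-high cells. Gkn3, a gastrokine, had 24.1 CPM in tumor-bearing and 57.4 CPM in control, a log2 ratio of -1.22, and Gsta3, a glutathione transferase, had 24.8 CPM in tumor-bearing and 56.8 CPM in control, a log2 ratio of -1.16. The same genes had log2 ratios of -0.61 (Gkn3) and -0.74 (Gsta3) in other Sftpc-high cells. With no endothelial gene allowed in a member, the log2 ratio was -0.56 for Gkn3 and -0.95 for Nrn1, under the size rule. Empty droplets held more of Gsta3 (86.2 CPM in tumor-bearing, 60.7 CPM in control) and of Nrn1 (49.6 CPM in tumor-bearing, 115.0 CPM in control) than AT2-AT1 cells did.

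Medians of the AT1, AT2 and transitional lists lay near 0 between the groups. The 32 measured AT1 genes had a median log2 ratio of -0.07 and the 34 AT2 genes 0.08, with none of either past the rule. The 20 transitional genes had -0.05, with Areg past it. Over all 2140 genes at 50 CPM or more, 5 were higher and 3 lower, so these counts do not set the lists apart. Without the highest Scrublet scores the median of the AT1 genes was 0.26, and with no endothelial gene allowed it was 0.14, so its direction turned. Of 10 genes of activated AT2 cells, 8 lay above 0 with a median of 0.48, and in other Sftpc-high cells the median was 0.55; Cxcl1, a neutrophil chemokine, had a log2 ratio of 0.79 in AT2-AT1 cells and 1.06 in other Sftpc-high cells. Of 17 immediate early genes, 16 lay above 0 with a median of 0.22, against 0.23 in other Sftpc-high cells. The MHC genes had a median of -0.17 in AT2-AT1 cells and -0.12 in other Sftpc-high cells, and B2m, the light chain of class I molecules, had 455.7 CPM in tumor-bearing and 724.6 CPM in control AT2-AT1 cells. All genes at 20 CPM or more had a median of -0.038 in AT2-AT1 cells, with 2143 of 4774 above 0. For the activated AT2, immediate early and MHC lists, the medians in AT2-AT1 cells and other Sftpc-high cells had the same sign; whether the size differs between the classes was not tested.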

How the data were processed

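The deposited files are matrices of UMI counts per gene and barcode, unfiltered, with 737280 barcodes and 28692 genes each; the authors used Cell Ranger 2.1.0 on the mm10 build, per the series' design text and the submitters' processing notes, which also name Seurat and R 3.5.3. Of the gene IDs, 28339 (98.8%) were found in GENCODE vM21. The counts were read with Python 3.11.15, scipy 1.17.1 and pandas 2.3.3, and summed over cells per library and class to CPM; no count model was fitted, since each group is 1 library. Empty droplets were barcodes of 1 to 100 UMIs. Doublets were scored with Scrublet in scanpy 1.11.5 and kept. Scripts were tested on simulated data. Genes were named by a rule: up to 12 per direction past the size rule in both libraries, by the smaller log2 ratio; up to 12 per direction between the groups; all genes of the selection; and up to 6 per list. Genes whose CPM in the higher class was below 0.5 times that in empty droplets were left out of the ranking. Genes of the selection were not ranked either. 1 gene that the rule names is not reported here. Further genes named in the text are list members chosen after their values were seen. The cells and the gene lists were chosen with earlier results of these data known, and the position measure was added after the data were seen. Shares, levels and ratios were recomputed under other cell filters, selections, scalings and pseudocounts.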

Additional observations from a re-analysis of the deposited data

How the results depend on the processing

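Each group is 1 library, so no replicate could be left out. No paired analysis was possible because each group holds 1 sample. Of the recomputed shares, counts, list medians and positions, 96 stayed within the counting interval, the spread over genes or 1.5 times the count reported, and 53 did not; all 234 ratios of named genes kept their direction, while Col4a3 (0.95), Gkn3 (-0.98) and Gsta3 (-0.94) fell short of 1 on the log2 scale between the groups with a pseudocount of 10 CPM. The share of AT2-AT1 cells was 0.992% in tumor-bearing and 0.947% in control cells with Sftpc at 20% or more, 1.92% in the control library at 10%, 4.27% in tumor-bearing and 4.34% in control with 2 AT1 genes, 0.833% and 0.765% with 4, 0.980% and 1.06% without Cav1, 0.453% and 0.309% after thinning to 2000 UMIs, 0.612% in tumor-bearing and 1.27% in control with no endothelial gene allowed and 1.20% in the control library without the highest Scrublet scores. Sftpc-high cells with ciliated genes fell to 0.402% in tumor-bearing and 0.430% in control after thinning. Genes higher than in other Sftpc-high cells numbered 204 in tumor-bearing and 208 in control with 4 AT1 genes, 517 and 559 with no CPM minimum, and 76 in control without the highest Scrublet scores. Genes lower numbered 39 in tumor-bearing and 30 in control with no CPM minimum, and in tumor-bearing 2 without surfactant genes in the totals, 1 with 4 AT1 genes and 5 with no endothelial gene. Between the groups, 9 genes were higher and 5 lower in tumor-bearing AT2-AT1 cells without surfactant genes, 11 and 6 with 4 AT1 genes, 9 and 5 without the highest Scrublet scores, 44 and 30 with no CPM minimum, 16 and 6 with no endothelial gene, and 1 lower with a pseudocount of 10 CPM. The AT1 list median was 2.31 in tumor-bearing and 2.41 in control with 4 AT1 genes, 1.49 and 1.54 with a pseudocount of 10 CPM, 2.04 in tumor-bearing with no endothelial gene and 1.35 in control without the highest Scrublet scores; between the groups, it was 0.26 without those scores, against -0.07. The AT2 list median was -0.32 in tumor-bearing with 4 AT1 genes and -0.34 in control without surfactant genes. The transitional list median was 0.24 in tumor-bearing and 0.32 in control with no CPM minimum, and in control 1.29 with 4 AT1 genes, 0.40 without the highest Scrublet scores and 0.59 with no endothelial gene. The median position was 0.210 in tumor-bearing and 0.221 in control with 4 AT1 genes, and 0.108 in control without the highest Scrublet scores. Alternatives with fewer cells or more genes change the counts by construction; otherwise the cause was not tested. Depth limits what can be said of single cells, since a member with 3 genes rests on a median of 4 UMIs of the AT1 genes.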
